A study of Mus musculus with 8 samples.

Results

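Smooth-muscle-rich spots are the spots of the 2 control E18.5 diaphragm sections in which *Myh11*, *Tagln* and *Acta2*, 3 genes of the smooth muscle contractile apparatus, took the largest share of the RNA counted. For every spot with at least 1000 UMIs (unique molecular identifiers, each standing for 1 captured probe molecule), the UMIs of the 3 genes were summed and divided by all UMIs of the spot. The top 5% of each section was taken, which gave 173 of 3460 spots in control 1 and 126 of 2525 spots in control 2, or 299 of 5985 in all, within a series of 12703 such spots.

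The series holds 8 sections of embryonic mouse diaphragm read by Visium, a slide on which tissue RNA is counted at a grid of spots, in formaldehyde-fixed, paraffin-embedded tissue cut *en face*. A spot covers a small piece of tissue and can hold several cells of different types. The comparisons below were made within the 2 control E18.5 sections, with 82859104 and 69837233 UMIs in controls 1 and 2 and a median of 22899.5 and 27184 UMIs per spot. The 3 control sections at E14.5 enter the fits that leave out a section, and they, 1 section of a CaV1.1 KO at each age and 1 of a β-cat cKO at E18.5 are used for side-by-side levels.

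Controls were embryos with at least 1 expressed allele each of CaV1.1, the calcium channel of skeletal muscle, and of β-catenin, so that a control can be heterozygous for either, and which allele each control carried is not given in the sources used here. The CaV1.1 KO lacks the channel from the germ line. In the β-cat cKO a floxed β-catenin gene is deleted by HSA-Cre, which the human skeletal actin promoter drives in skeletal muscle fibers, not in smooth muscle. No treatment was given to any group.

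Smooth muscle forms the wall of arteries and veins and the muscle coat of hollow organs. Its contraction starts when calcium activates myosin light chain kinase, and its contractile genes are switched on by myocardin acting with serum response factor. In the fetal vessel wall, smooth muscle and endothelium signal to each other through Jagged1 and Notch3, and the smooth muscle of large arteries deposits elastin. *Myh11* encodes smooth muscle myosin heavy chain, *Acta2* smooth muscle α-actin and *Tagln* transgelin, an actin-binding protein. *Acta2* and *Tagln* also occur in pericytes, myofibroblasts and immature skeletal muscle, whereas *Myh11* is the most restricted of them. On the mouse genome build GRCm38, *Myh11* lies on chromosome 16 at 14194535 to 14291372, *Tagln* on chromosome 9 at 45929619 to 45936058 and *Acta2* on chromosome 19 at 34241090 to 34255590, each on the minus strand.

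The score that chose the spots is a description, not a test. Per 10000 UMIs of a spot, the 3 genes summed to a median of 9.17 in the chosen spots of control 1 and 11.6 in those of control 2, against 2.57 and 2.72 in the rest of the sections. The highest spots reached 59.0 and 99.1. The threshold cut through a continuous range, because the lowest chosen spot had 6.69 in control 1 and 7.57 in control 2 and the highest spot left out had 6.66 and 7.55. Some of the last spots on either side of it held few UMIs of the 3 genes. In 1 chosen spot of control 1 these were 0 of *Myh11*, 4 of *Tagln* and 6 of *Acta2*. Others held more, such as 1, 11 and 31 in 1 spot left out in control 1. Depth was close between the groups, with a median of 21101 UMIs per chosen spot and 23115 per other spot in control 1, and 23237.5 and 27346 in control 2.

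Levels below are CPM, the UMIs of a gene per 1000000 UMIs of all genes in the spots summed. In the chosen spots of controls 1 and 2 *Myh11* stood at 87.6 and 142.6 CPM, against 4.74 and 4.81 in the rest. *Tagln* stood at 467 and 913 CPM against 56.9 and 66.2, and *Acta2* at 692 and 882 CPM against 209 and 217. The separation was widest for *Myh11* and narrowest for *Acta2*, which was spread over the whole section. A *Myh11* UMI was seen in 63.6% of the chosen spots of control 1 and 84.1% of those of control 2. In other skeletal muscle spots, whose fibers lack this myosin, the share was 9.32% and 10.9% at a median of 23550 and 27979.5 UMIs per spot. *Acta2* was seen in all chosen spots, and in 94.9% and 96.2% of the others.

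To test the 3 genes without circularity, each was measured in the top 5% of spots chosen by the other two. *Myh11* was 81.7 and 137 CPM in such spots of controls 1 and 2, against 5.07 and 5.12 CPM in the others, a 16.8-fold difference (log2 fold change 4.07, SE 0.16, edgeR quasi-likelihood adjusted p = 2e-09, 2 sections). *Tagln* was 7.65-fold higher (log2 fold change 2.94, SE 0.14) and *Acta2* 2.51-fold higher (log2 fold change 1.33, SE 0.20, adjusted p = 0.0081 by edgeR). Each of the 3 genes was thus higher in spots chosen without it. The *Acta2* call was lost without the section as a block (adjusted p = 0.07 by edgeR). Because a single section leaves no spread, leaving out control 1 or 2 was read here and below from a fit of all 5 control sections of both ages. With 1 E18.5 control left, the spread in that fit comes from the E14.5 sections alone. Calls kept or lost there thus rest on the spread at E14.5. Without control 2 the *Acta2* log2 fold change was 1.14 and its call was lost.

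**Figure D1:**
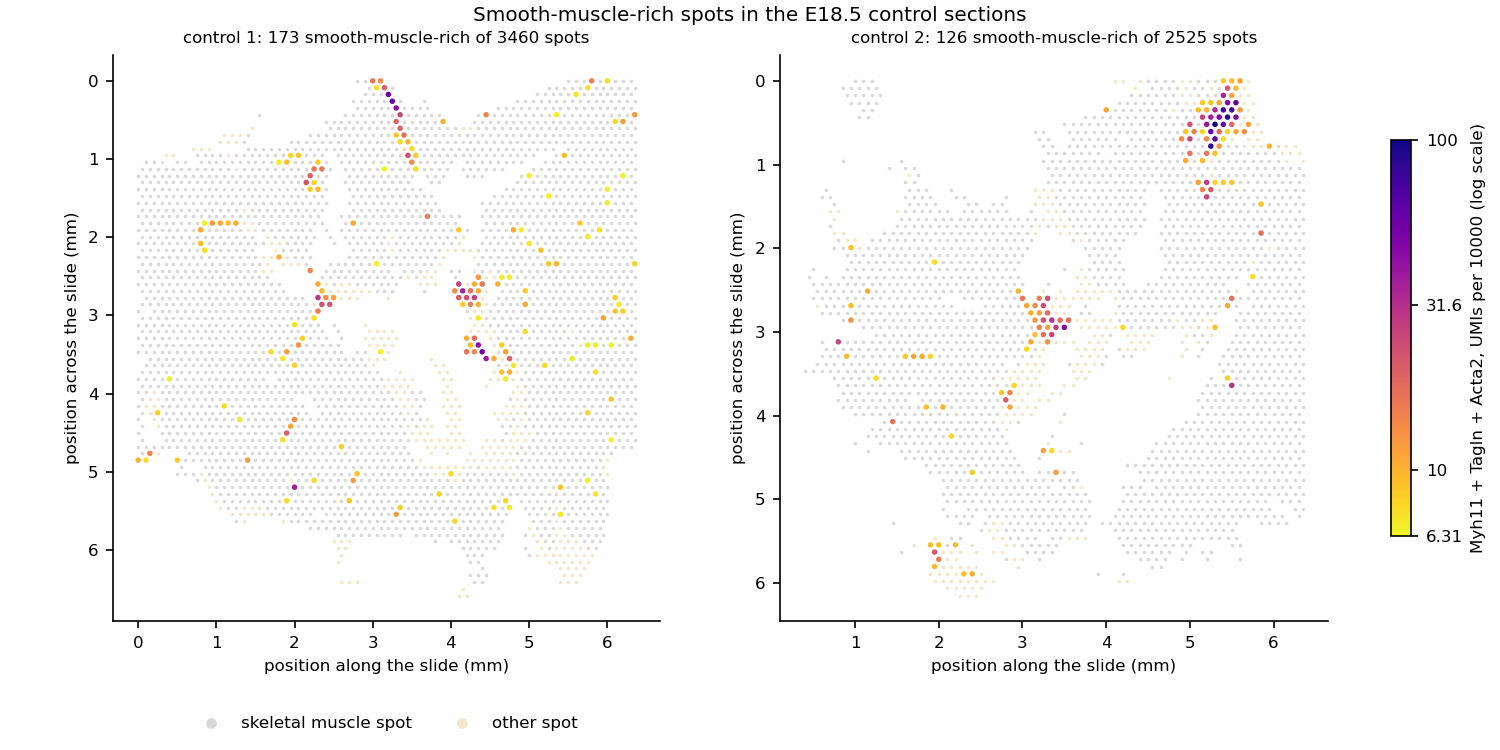
Position in mm of every spot with at least 1000 UMIs in E18.5 controls 1 (left) and 2 (right), with skeletal muscle spots in grey, other spots in cream and smooth-muscle-rich spots colored by the summed UMIs of *Myh11*, *Tagln* and *Acta2* per 10000 UMIs (log color scale). In control 2 the largest patch of adjacent smooth-muscle-rich spots holds 47 of the 126, in control 1 it holds 19 of the 173.

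The chosen spots were both scattered singly through the muscle and gathered in a few dense patches, as the map of the sections shows. Of all grid neighbors of a chosen spot, 26.5% in control 1 and 50% in control 2 were chosen too, against 3.74% and 2.69% of the neighbors of other spots. They formed 84 and 33 patches of adjacent spots, of which 61 and 22 were single spots, and the largest held 19 and 47 spots.

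Skeletal muscle spots were those above a threshold of the mean level of 9 sarcomere genes. They made up 69.9% of the chosen spots of control 1 (121 spots; exact 95% binomial interval 62.5 to 76.7%) and 42.1% of those of control 2 (53 spots; 33.3 to 51.2%), against 90.4% and 89.5% of the rest. Of the spots outside muscle 14.1% and 22.4% were chosen, and of those inside it 3.91% and 2.41%. At the outline of the tissue lay 29.5% of the chosen spots of control 1 and 19.8% of the others, but 27.0% and 27.8% in control 2. The intervals cover counting error within a section only, and since muscle RNA enters the total by which the score divides, the share in muscle is not independent of the rule.

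Against the rest of the section, a fit over all genes called 1631 genes higher and 1582 lower, which is 11.5% and 11.2% of the 14163 genes tested (edgeR quasi-likelihood test on UMIs summed per section, section as block, adjusted p under 0.05). With 2 sections the fit has 1 residual degree of freedom, so that its p-values lean on the spread shared across genes, and they measure only the spread between these samples. DESeq2 called 574 higher and 865 lower, and scaling by library totals alone, which moves the median log2 fold change of all genes from 0.04 to 0.35, gave 4469 and 633. As summed spots are bulk samples, more cells of a type and more RNA per cell cannot be told apart.

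Many smooth muscle genes outside the rule were higher in the chosen spots. Of 22 other contractile genes 12 rose and 2 fell (12 and 5 by DESeq2), with a median log2 fold change of 1.20 against 0.04 over all genes. *Actg2*, the γ-actin of smooth muscle, stood at 125 and 170 CPM in controls 1 and 2 against 4.71 and 4.27 in the rest (log2 fold change 4.70, SE 0.15, adjusted p = 1e-08 by edgeR). *Cnn1*, calponin, a marker of mature smooth muscle, stood at 18.7 and 49.3 CPM against 1.31 and 1.14 (log2 fold change 4.35, SE 0.30). *Lmod1*, which nucleates smooth muscle actin filaments, had a log2 fold change of 3.73 (SE 0.19). For each of these genes both sections showed the same direction, and the spots summed to levels far above those of the rest.

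The kinase that starts contraction, *Mylk*, stood at 108 and 116 CPM against 19.9 and 22.7 (log2 fold change 2.09, SE 0.12). *Ppp1r14a*, an inhibitor of the myosin phosphatase, rose by 1.84 on the log2 scale and *Kcnmb1*, the β-subunit of the calcium-activated potassium channel, by 3.28 from few UMIs (12 and 16 in the chosen spots). Among genes of the list that many cells use for their actin cytoskeleton, the log2 fold changes were 1.25 for *Cald1*, 1.35 for *Flna* and 1.49 for *Actn1*. Of the 7 fixed smooth muscle markers outside the rule, *Cnn1*, *Lmod1*, *Actg2*, *Mylk* and *Myocd* rose, whereas *Myl9* (log2 fold change 0.25, adjusted p = 0.34) and *Smtn* (-0.50, adjusted p = 0.081) did not pass the test. *Smtn* stood at 341 and 302 CPM against 385 and 347. *Synpo2*, an actin-bundling protein that skeletal muscle also makes, fell by 0.85 on the log2 scale.

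**Figure D2:**
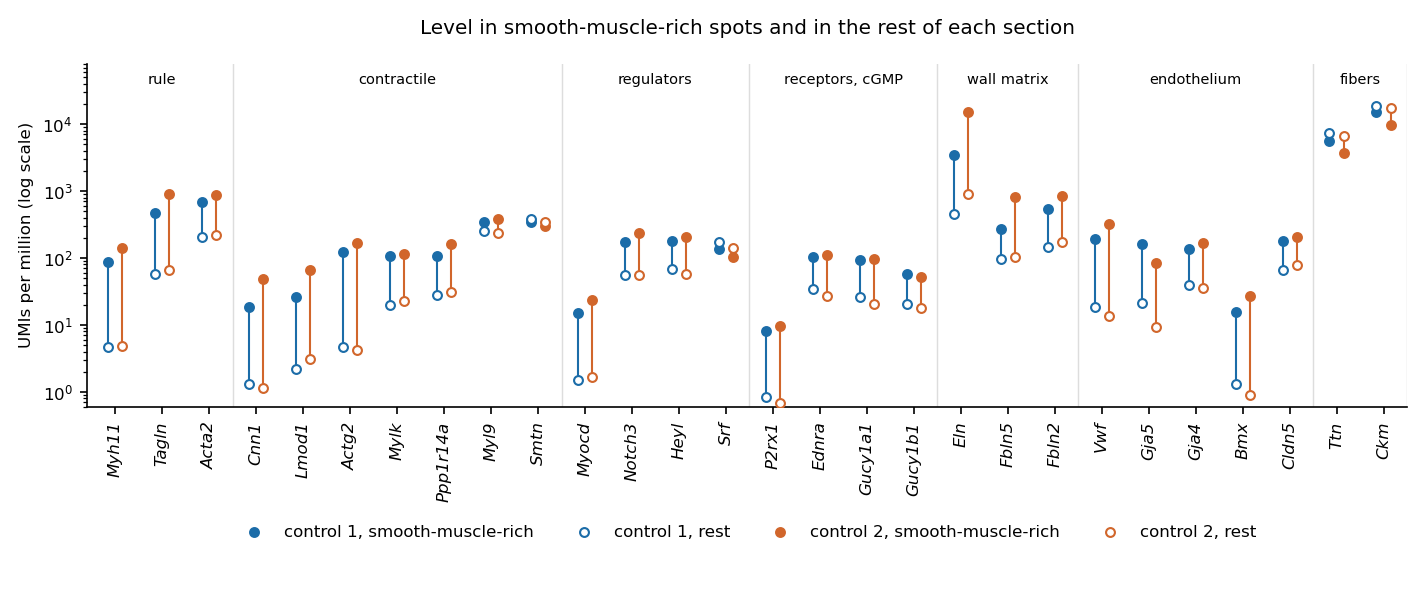
Level of 28 genes in CPM (log axis) in smooth-muscle-rich spots (filled) and in the rest of the section (open), for E18.5 control 1 (blue) and control 2 (orange), each point being the sum over all spots of that kind in 1 section. *Actg2* stands at 125 and 170 in the smooth-muscle-rich spots against 4.71 and 4.27, whereas *Smtn*, *Srf*, *Ttn* and *Ckm* lie lower there than in the rest.

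Among 14 regulators of smooth muscle 10 rose and 1 fell (median log2 fold change 1.08). *Myocd*, the master coactivator of the contractile program, stood at 15 and 23.3 CPM against 1.497 and 1.68 (log2 fold change 3.25, SE 0.25), and was seen in 22.0% and 30.2% of the chosen spots against 3.47% and 4.42% of the others. Its partner *Srf*, which skeletal muscle also uses, was called lower at 136 and 104 CPM against 172 and 143 (log2 fold change -0.71, SE 0.15), but not with library totals alone. The Notch genes of the vessel wall were higher, with a log2 fold change of 2.27 for the ligand *Jag1*, 1.57 for the receptor *Notch3* and 1.31 for its target *Heyl*. *Foxs1*, a forkhead factor of pericytes and smooth muscle, rose by 1.55.

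Genes through which vascular smooth muscle receives signals were higher as well, 10 of 18 having risen and 1 having fallen (median 0.89). *P2rx1*, an ATP-gated channel of arterial smooth muscle, stood at 8.24 and 9.53 CPM against 0.84 and 0.69 (log2 fold change 3.22, SE 0.38). *Ednra*, the endothelin receptor A, rose by 1.51. Both subunits of the nitric oxide receptor soluble guanylate cyclase were higher, with log2 fold changes of 1.72 for *Gucy1a1* and 1.24 for *Gucy1b1*, and so was *Pde5a*, which degrades the cyclic GMP that the cyclase makes (0.96). *Kcnma1*, the pore subunit of the calcium-activated potassium channel, was the member called lower (log2 fold change -0.70), but not by DESeq2 (adjusted p = 0.054).

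Elastin had the highest level of the vessel wall genes described here. *Eln*, its gene, stood at 3513 CPM in the chosen spots of control 1 and 15148 CPM in those of control 2, against 449 and 899 in the rest (log2 fold change 3.21, SE 0.52, adjusted p = 0.0019 by edgeR). Of 14 elastic fiber and wall matrix genes 11 rose and none fell (median 0.61). The elastin-binding fibulins *Fbln5* and *Fbln2* rose by 1.93 and 1.76 and fibrillin 1, *Fbn1*, by 0.97. For *Eln* and *Fbln5* the sections differed, *Fbln5* standing at 272 CPM in control 1 and 813 CPM in control 2. In control 2, 67.8% of the *Eln* UMIs of the chosen spots and 86.0% of their *Cnn1* UMIs came from the largest patch, against 25.8% and 29.3% in control 1.

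Endothelial genes accompanied the smooth muscle genes. *Vwf*, von Willebrand factor, stood at 192 and 327 CPM against 18.3 and 13.5 (log2 fold change 3.68, SE 0.22, adjusted p = 2.4e-06 by edgeR). Arterial genes were higher in 8 of 10 cases and lower in none (median 1.34), among them the gap junction genes *Gja5* (162 and 82.8 CPM against 21.3 and 9.42, log2 fold change 2.72, SE 0.12) and *Gja4* (1.73), the kinase *Bmx* (3.91) and the semaphorin *Sema3g* (2.17). Of 5 genes of the venous list 4 rose, *Vwf* among them and the venous regulator *Nr2f2* (1.61). Pan-endothelial genes rose in 14 of 17 cases (median 0.80), by less than the arterial median. *Cldn5*, a tight junction gene, rose by 1.12, whereas *Cdh5*, VE-cadherin, stood at 399 and 335 CPM against 230 and 205 and did not pass the test (log2 fold change 0.44, adjusted p = 0.1). Spots rich in smooth muscle and spots rich in endothelium overlapped in part: 52 of the chosen spots (30.1%) in control 1 and 31 (24.6%) in control 2 were also in the top 5% by *Pecam1*, *Cdh5* and *Kdr*.

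Pericytes share many of these genes, and 8 of 12 pericyte genes rose and none fell (median 0.75), 2 of which, *Notch3* and *Pdgfrb*, also stand on a smooth muscle list. *Rgs5*, a signaling inhibitor abundant in pericytes, rose by 1.38 and the hypoxia gene *Ndufa4l2* by 1.56. *Abcc9*, *Cspg4*, *Higd1b* and *Vtn* were not called, *Abcc9* standing at 160 and 178 CPM against 151 and 149.

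The other named increases were *Prss35* (log2 fold change 2.22), the guidance ligand *Slit3* (2.14), the vascular amine oxidase *Aoc3* (2.11), *Fblim1* (1.94), which links filamin to adhesions, and the growth factor *Gdf10* (1.83). Of 15 named genes that rose DESeq2 called 14, *Myh6* being the exception, and of 10 that fell it called 9. Other lists that rose in part were matrix genes of the TGF-β response (6 of 12, such as fibronectin *Fn1* with 1.02), fibroblast genes (4 of 12, such as *Pi16*, a marker of adventitial fibroblasts, with 1.68) and cell cycle genes (5 of 8). Of the cell cycle genes, the proliferation marker *Mki67* rose by 0.53 and DESeq2 called none. Of 6 neuron genes 2 rose, *Stmn2*, a microtubule regulator of growing axons, standing at 92.1 and 174 CPM against 17.7 and 55.7. That call was lost without control 1. In control 2, 70.4% of the *Stmn2* UMIs of the chosen spots came from the largest patch, against 24.4% in control 1. The 10 highest spots of the rest of control 2 held 46.1% of the *Stmn2* UMIs there. Of 6 erythroid genes 2 rose, and the list summed to 1252 and 1917 CPM against 838 and 668, with the hemoglobin gene *Hbb-bs* the most abundant. Of 12 basement membrane genes 3 rose, of 7 Schwann cell genes 2 and of 6 lymphatic genes 3, with 1 fall. Of 7 macrophage and 3 adipocyte genes 0 were called, but with library totals alone 6 and 2 were called higher. Over all genes 11.5% were called higher and 11.2% lower, and counts in lists this short can lie near those shares. The part of these other cell types in the results was not tested.

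Skeletal muscle RNA was lower in the chosen spots, and since it takes part in the total by which the score divides, its share is not independent of the rule. The 15 sarcomere genes summed to 162744 and 107820 CPM in the chosen spots and 206460 and 206443 CPM in the rest, *Acta1* being the most abundant. Of the 15, 3 were called lower, against 15 by DESeq2. Of 12 genes of immature skeletal muscle 10 fell and none rose (median log2 fold change -0.85). *Myh2*, *Myl2*, *Myl3*, myoglobin (*Mb*) and the myotendinous collagen *Col22a1* were among the 10 named decreases, with log2 fold changes of -1.37, -1.17, -1.17, -1.15 and -1.13, as were the muscle genes *Pitx3* (-1.20) and *Dupd1* (-1.17). The *Myh2* call was lost without control 2. The mesothelial genes *Msln* and *Krt7* fell by 1.57 and 1.33 on the log2 scale. Of the 7 listed mesothelial genes tested, *Msln* but not *Krt7* among them, 3 fell. All 6 hepatocyte genes were called lower, among them the apolipoprotein *Apoa1* (-1.76), but control 2 held next to no liver RNA (a sum of 0.66 CPM in the rest, against 1378 CPM in control 1), and DESeq2 called 1 of the 6.

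Markers of other muscle types were checked in the same spots. Of 8 genes of visceral smooth muscle and interstitial cells 4 rose, *Actg2*, which also stands on the contractile list, being the most abundant. *Nkx2-3*, which marks gut smooth muscle, was at 0 UMIs in both sections and *Hand1* at 0 in control 1. Of 3 genes of esophageal epithelium tested none rose and 2 fell, while DESeq2 called 1 of 7 lower. The keratins *Krt5* and *Krt15* were at 0 UMIs in the chosen spots of both sections. They were also low in the rest, with 0 and 1 UMIs of *Krt5* and 5 and 19 of *Krt15*. *Trp63*, of the same list, held 81 and 43 UMIs in the chosen spots, or 20.2 and 14.1 CPM against 23.4 and 25.6 in the rest. Of 7 cardiac genes 5 were called higher, whereas DESeq2 called 2 higher and 1 lower. *Myh6*, α-myosin heavy chain, stood at 160 CPM in control 1 and 22.0 CPM in control 2 against 5.999 and 6.004 CPM in the rest, and *Myl7*, the atrial light chain, at 175 and 25 CPM against 3.83 and 2.08. The 10 highest spots held 97.5% of the *Myh6* and 99% of the *Myl7* UMIs of the chosen spots of control 1. In a fit added after the data were seen, on chosen spots with no adjacent chosen spot, their log2 fold changes were -1.18 and -0.60. Neither passed the test (adjusted p = 0.35 for *Myh6* and 0.83 for *Myl7* by edgeR).

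Patches differed from single spots in their vessel genes. In spots with no adjacent chosen spot (61 in control 1, 22 in control 2) *Eln* stood at 850 and 1167 CPM, and in patches of 10 or more spots (33 and 72 spots) at 7570 and 25228 CPM. *Cnn1* likewise stood at 2.56 and 3.53 CPM in single spots and 34.1 and 81.5 CPM in large patches, and *Myh11* at 43.5 and 81.2 against 115 and 168. *Gja5* showed no such step, with 132 and 111 CPM in single spots and 130 and 60.4 in large patches, nor did *Notch3*, with 147 and 189 CPM against 186 and 246. Patches were defined with the rule's own genes, so that these levels carry no test. In the fit added after the data were seen, the spots with no adjacent chosen spot still differed from the rest in *Gja5* (log2 fold change 2.80), *Actg2* (2.88), *Jag1* (1.76), *Mylk* (1.63), *Notch3* (1.44) and *Eln* (0.54). *Cnn1* had 1.09 there and did not pass the test (adjusted p = 0.71 by edgeR), nor did *Slit3* (0.39), *Gdf10* (0.25), *Fn1* (0.09) and *Pi16* (0.01). Of 72 named genes 16 lost their call and 2 reversed without passing the test in this fit, and 659 genes were called in all.

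**Figure D3:**
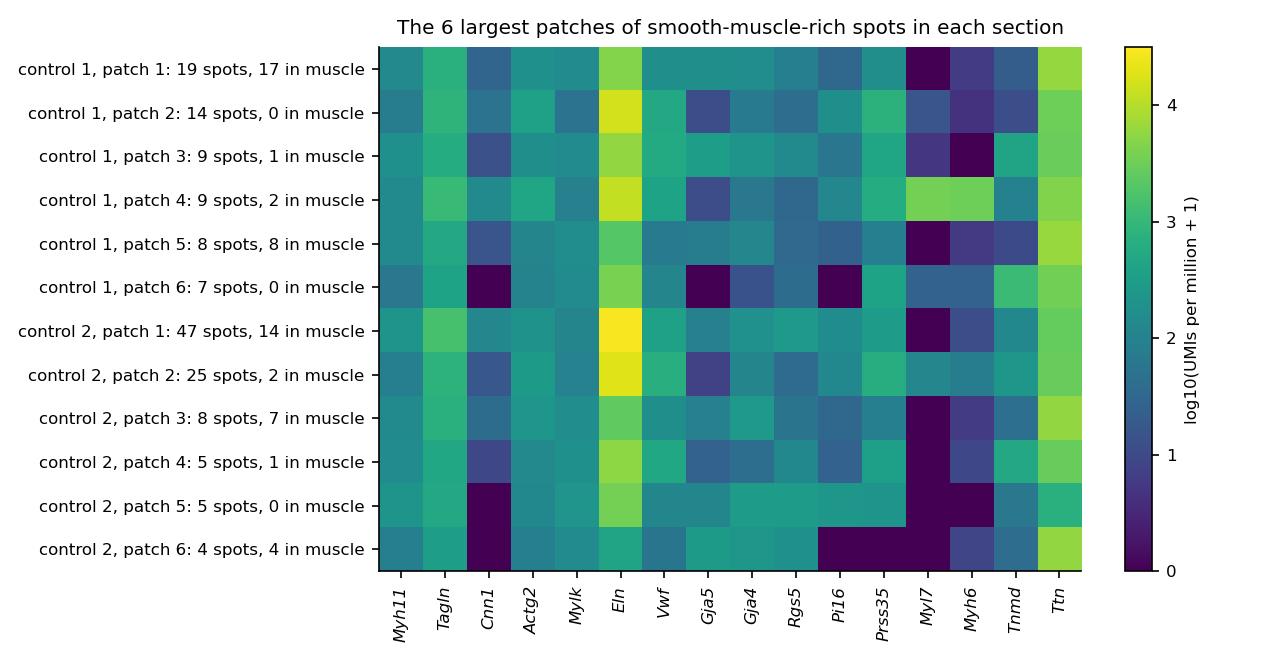
Level of 16 genes, as log10(CPM + 1), in the 6 largest patches of adjacent smooth-muscle-rich spots in each E18.5 control section, with the number of spots of each patch and how many are skeletal muscle spots. *Eln* is brightest in control 2 patches 1 and 2 (28960 and 18799 CPM), and *Myl7* and *Myh6* are brightest in control 1 patch 4 (3616 and 3261).

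Patches also differed from each other. In control 1 the largest patch, 19 spots of which 17 were in muscle, had 172 CPM of *Gja5* and 4652 CPM of *Eln*, whereas the second, 14 spots with none in muscle, had 10.8 CPM of *Gja5*, 15791 CPM of *Eln* and 510 CPM of *Vwf*. In control 2 the largest patch, 47 spots, had 91.8 CPM of *Gja5* and 28960 CPM of *Eln*, and the second, 25 spots, had 6.39 CPM of *Gja5*, 18799 CPM of *Eln* and 669 CPM of *Vwf*. The second patch thus had less *Gja5* than the largest in both sections, but more *Eln* in control 1 and less in control 2. The third patch of control 1 was high in both, with 325 CPM of *Gja5* and 573 CPM of *Vwf*. *Myl7* and *Myh6* of control 1 lay in the fourth patch, whose 9 spots were all at the outline of the tissue, at 3616 and 3261 CPM. In control 2 they were highest in the second patch, at 118 and 75.0 CPM.

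**Figure D4:**
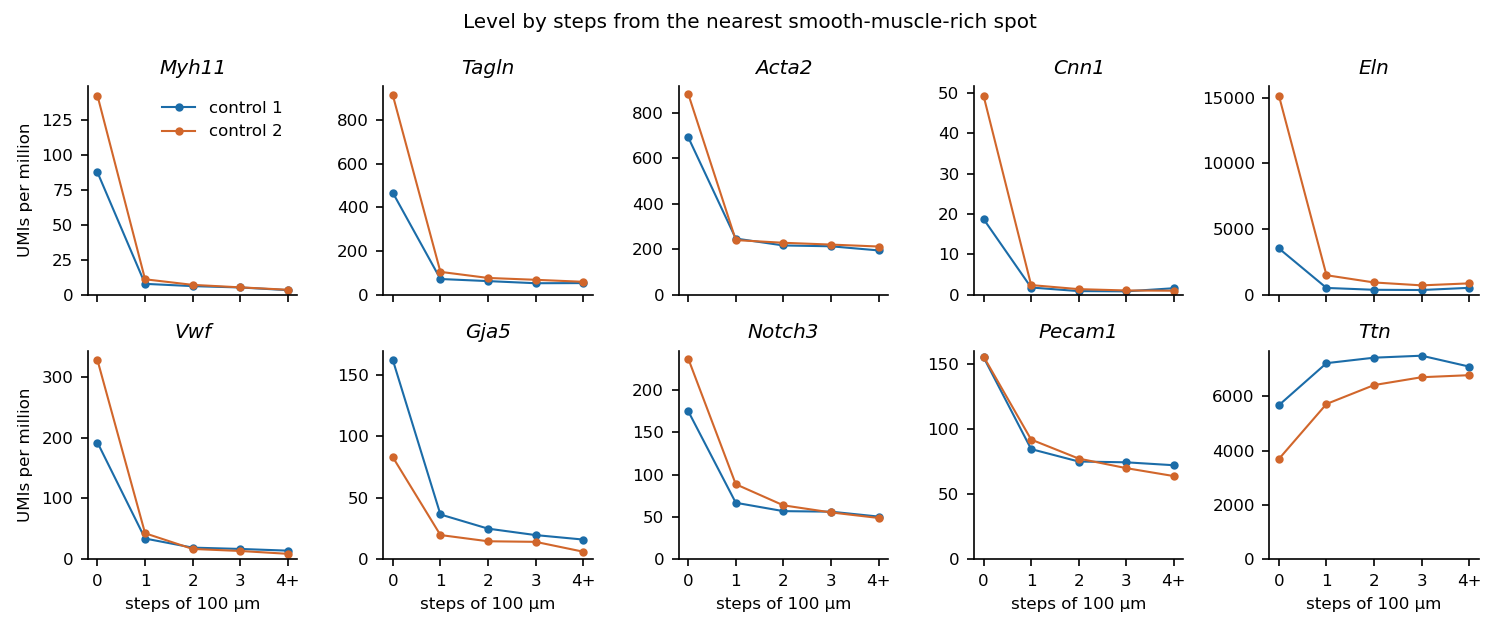
Level in CPM of 10 genes by grid steps of 100 µm from the nearest smooth-muscle-rich spot (0 is these spots themselves, 4+ is 4 or more steps) in E18.5 control 1 (blue) and control 2 (orange). *Myh11* falls from 87.6 and 142.6 to 7.67 and 10.9 after 1 step, whereas *Ttn* rises from 5679 and 3695 to 7228 and 5723.

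Away from the chosen spots the levels dropped within 1 grid step of 100 µm. *Myh11* was 7.67 and 10.9 CPM in the adjacent spots and 3.16 and 3.42 CPM at 4 or more steps, though for the 3 rule genes this drop is set by the choice of spots. *Vwf*, not used by the rule, went from 192 and 327 CPM to 33.8 and 42.5 in adjacent spots and 13.9 and 8.67 far away. *Gja5* went from 162 and 82.8 CPM to 36.3 and 19.5 and then to 15.9 and 6.01. *Pecam1*, a pan-endothelial adhesion gene, declined less, from 156 CPM in both sections to 84.8 and 92.1 in adjacent spots and 72.3 and 64.0 far away. These genes were above their far level in adjacent spots of both sections. In control 1 other genes raised in the chosen spots were not, *Eln* standing at 504 CPM in adjacent spots and 511 CPM far away, *Slit3* at 18.05 and 21.0 CPM and *Pi16* at 8.54 and 18.6 CPM, whereas in control 2 all 3 were higher in adjacent spots.

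Since fewer of the chosen spots lay in muscle, the comparison was repeated on either side of that border. Outside skeletal muscle, 417 genes were higher and 377 lower in the 125 chosen spots, 3.37% and 3.04% of the 12383 genes tested, while DESeq2 called 137 and 82. *Actg2* stood at 277 and 248 CPM against 12.2 and 13.0 in other spots outside muscle (log2 fold change 4.33, SE 0.13, adjusted p = 7.5e-09 by edgeR) and *Cnn1* at 46.0 and 77.6 CPM against 1.49 and 1.91 (5.09, SE 0.27). *Myl9*, the regulatory light chain, was now called higher, at 408 and 400 CPM against 165 and 159 (1.27, SE 0.09). *Heyl* and *Notch3* rose by 2.17 and 1.62, *Vwf* by 3.54 and *Gja5* by 3.20. The other named increases were *Ppp1r14a* (2.57), *Eln* (2.44), *Parm1* (2.35) and the cardiac genes *Myh6* (6.18) and *Myl7* (3.83), whose UMIs in the chosen spots of control 1 came mostly from few spots. Of 22 contractile genes 14 rose and none fell (median 0.79 against -0.01 over all genes), and of 10 arterial genes 8 rose (median 1.54). Of 14 elastic fiber genes 7 rose and 4 fell there. In lists that had risen in part over all spots fewer genes were called higher here. There were 1 rise and 3 falls among 11 fibroblast genes and 4 and 3 among 12 matrix genes of the TGF-β response. Of 6 neuron genes 0 rose and 2 fell, of 7 Schwann cell genes 0 and 1, and of 8 cell cycle genes none was called. Lists this short can hold such counts at the 3.37% and 3.04% of all genes called. Of the 8 cell cycle genes 6 kept a positive log2 fold change (median 0.14).

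Tendon, cartilage and mesothelial genes were lower in the chosen spots outside muscle. Of 8 tendon genes 7 fell, among them *Tnmd*, tenomodulin (359 and 195 CPM against 964 and 922, log2 fold change -1.88, SE 0.17), and the tendon regulator *Scx* (-1.73). All 5 cartilage genes and 6 of 7 mesothelial genes fell, such as *Col2a1* (-2.23) and *Msln* (-2.06). Among the named decreases were the liver genes *Cps1*, *Apoc1*, *F2* and *Trf*, with log2 fold changes from -5.70 to -3.48. They were abundant in control 1 only, lost their calls without it, and DESeq2 called none of them.

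Inside skeletal muscle, 1299 genes were higher and 1475 lower in the 174 chosen spots, 9.42% and 10.7% of the 13794 genes tested. Scaling by library totals alone gave 2908 higher and 480 lower, with a median of all genes of 0.20 in place of 0.01. Most genes of the arterial, venous and pan-endothelial lists were called higher here too, and contractile genes moved both ways. *Gja5* stood at 146 and 100 CPM against 21.6 and 9.27 in other muscle spots (log2 fold change 2.78, SE 0.10), *Mylk* at 100 and 97.9 CPM against 18.8 and 19.8 (2.18, SE 0.10) and *Lmod1* at 17.6 and 43.1 CPM against 1.94 and 2.76 (3.38, SE 0.23). Of the 8 named increases the others were *Eln* (2.21), *Reln* (2.19), *Jag1* (2.10), *Aoc3* (2.01), *Gja4* (1.74), *Ndufa4l2* (1.66) and the chemokine *Cxcl12* (1.57), and DESeq2 called all 8. Of 22 contractile genes 13 rose and 5 fell (median 0.92), the latter being *Smtn*, *Synpo2*, *Tpm1*, *Tpm2* and *Ppp1r12b* with log2 fold changes from -0.46 to -0.30, genes that skeletal muscle fibers also express. Of 17 pan-endothelial genes 16 rose, of 5 venous genes 4 (median 1.41), of 10 arterial genes 9 (median 1.40) and of 18 receptor and channel genes 11, with 1 fall. Skeletal muscle lists fell as well, with 6 of 6 sarcomere genes tested, 10 of 12 immature muscle genes and 4 of 4 myotendinous genes called lower. DESeq2 called 6, 5 and 3 of them lower. The 5 named decreases were *Msln* (-1.94), *Col9a1* (-1.34), *Col2a1* (-1.22), *Col22a1* (-1.12) and *Col11a2* (-1.04). *Col2a1* stood at 46.0 CPM in the chosen and 42.0 CPM in the other muscle spots of control 2, a difference of -0.09 in log2 after the scaling of the fit, and DESeq2 did not call it. Moving the border to the median muscle score left 5 calls inside muscle.

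**Figure D5:**
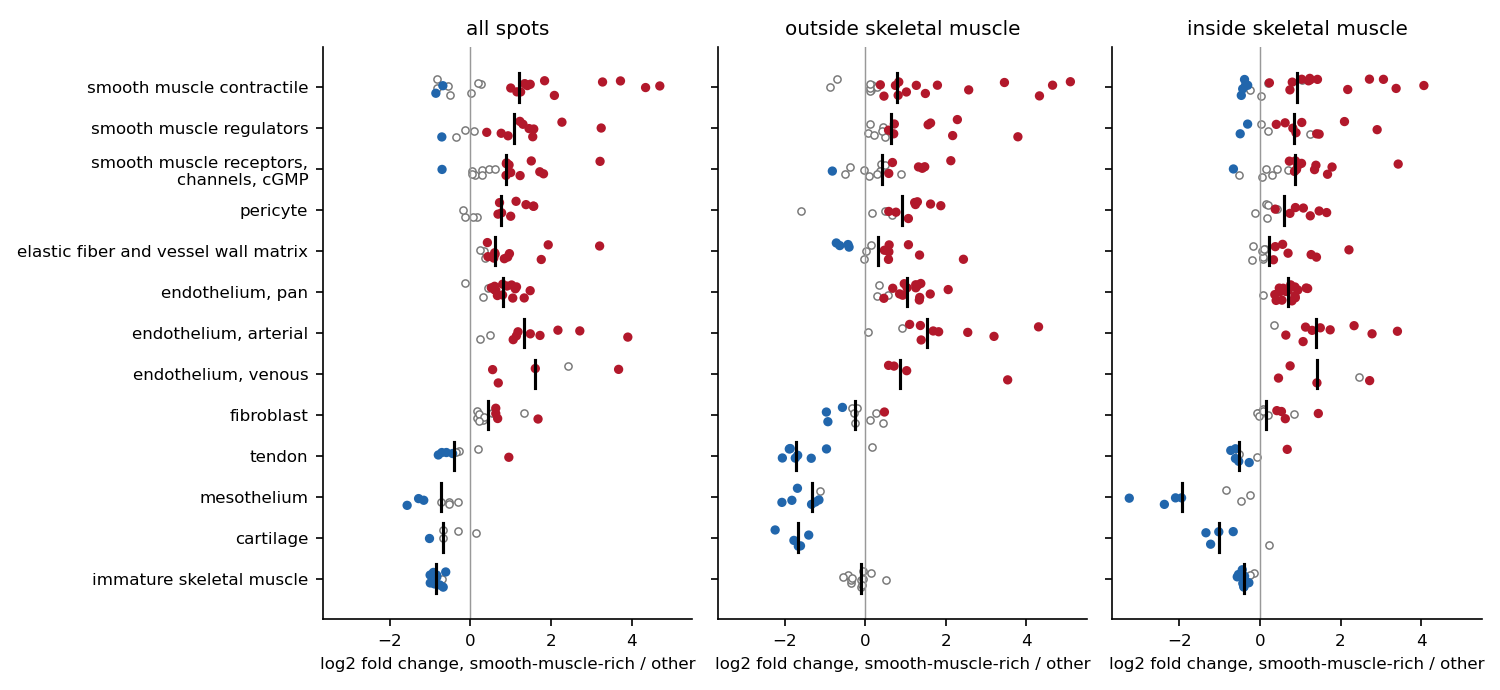
Log2 fold change of smooth-muscle-rich against other spots, each point 1 gene of a fixed list, over all spots (left), outside (middle) and inside skeletal muscle (right), in the E18.5 controls. Filled red and blue points are genes called higher and lower at an adjusted p under 0.05, open points are not called and black bars are list medians. Contractile medians are 1.20, 0.79 and 0.92, arterial medians 1.34, 1.54 and 1.40, and tendon medians -0.40, -1.70 and -0.52.

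Whether a gene's rise differed between the tissue inside and outside muscle was tested as an interaction. It was called for 39 genes, 26 (0.205% of the 12692 tested) with the more positive log2 fold change inside and 13 (0.102%) with the more positive one outside. Single smooth muscle genes were among the 13, while the medians of the smooth muscle lists were higher inside than outside, at 0.92 and 0.79 for contractile genes, 0.86 and 0.65 for regulators and 0.87 and 0.42 for receptors and channels. *Heyl* had a log2 fold change of 0.89 inside and 2.17 outside (difference -1.27, SE 0.15, adjusted p = 0.0099 by edgeR), *Ppp1r14a* 1.43 and 2.57 (difference -1.12, SE 0.15) and *Myl9* 0.23 and 1.27 (difference -1.01, SE 0.16, adjusted p = 0.044). *Calcrl*, the receptor for adrenomedullin and calcitonin gene-related peptide, had 0.25 and 2.25 (difference -1.999, SE 0.16, adjusted p = 0.00098), and *Abcc9* -0.13 and 1.07 (difference -1.16, SE 0.18). Among genes with the more positive value inside were the guidance gene *Ntn1* (1.07 and -0.46, difference 1.54, SE 0.18) and the homeobox gene *Meox2* (0.56 and -0.77, difference 1.36, SE 0.19). Without the section as a block edgeR called 0 genes (762 of 12692 at an unadjusted p under 0.05), and with the border at the median muscle score again 0 (960 of 13767). DESeq2 called 147 genes, 9 of them among the 39. The calls of *Heyl*, *Ppp1r14a*, *Myl9*, *Calcrl* and *Ntn1* were lost when either control was left out, and those of *Abcc9* and *Meox2* without control 2.

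The chosen spots were also compared with endothelium-rich spots, the top 5% by *Pecam1*, *Cdh5* and *Kdr*. Each group was chosen by genes of its own cell type. Higher contractile and lower endothelial genes in this comparison thus follow in part from the choice of spots. With the 83 shared spots left out, 344 genes were higher and 211 lower in smooth-muscle-rich spots, 3.05% and 1.87% of the 11269 genes tested, while DESeq2 called 23 higher and 0 lower (322 genes in either direction at an unadjusted p under 0.05) and scaling by totals alone gave 478 and 91. Contractile, matrix and cardiac genes were among those higher. *Cnn1* stood at 23.4 and 59.0 CPM in smooth-muscle-rich and 0.47 and 0.42 CPM in endothelium-rich spots, the latter from 1 UMI in each section. *Actg2* stood at 134 and 171 CPM against 7.99 and 13.5 (log2 fold change 3.73, SE 0.18) and *Eln* at 3964 and 17482 CPM against 330 and 1441 (3.50, SE 0.28). *Vwf*, although an endothelial gene, was higher in smooth-muscle-rich spots, at 164 and 295 CPM against 41.8 and 63.9 (2.01, SE 0.15). The *Vwf* call was lost without control 2. The other named increases were *Myl7* (6.26), *Myh6* (4.76), *Cyp1b1* (1.996), the liver gene *Ahsg* (1.98) and the lymphangiogenic factor *Vegfd* (1.92), of which DESeq2 did not call *Myh6* and *Ahsg*. All 5 hepatocyte genes tested were called higher (median 1.59), with next to no liver RNA in control 2.

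Of 20 contractile genes tested there 11 rose and none fell (median 0.51), and of 14 elastic fiber genes 10 rose (median 0.70). DESeq2 called 4 of 22 contractile and 2 of 14 elastic fiber genes higher. Of 14 pan-endothelial genes 2 fell and none rose, while of 10 arterial genes 1 rose and 3 fell, falls that the choice of spots sets in part. Of 5 cartilage genes 4 fell (median -0.94), though DESeq2 called none of 6. Among the 8 named decreases was *Gpihbp1*, which anchors lipoprotein lipase in capillaries (84.4 and 87.7 CPM against 140 and 177, log2 fold change -0.96, SE 0.13). Others were the receptor *Robo4* (-1.04), the transcription factor *Sox7* (-0.96) and the cartilage gene *Col9a1*. DESeq2 called none of these 8, and each lost its call when either control was left out.

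The same rule was applied to the other sections, and the levels are given side by side without a test. In the 3 E14.5 control sections the chosen spots held 0, 5 and 3 UMIs of *Myh11* in all, against 351 and 434 in the E18.5 controls, so that *Tagln* and *Acta2* chose them. *Vwf* stood at 0, 0.79 and 7.02 CPM in these spots against 7.39, 7.88 and 8.77 CPM in the rest, and *Eln* at 260, 285 and 121 CPM against 226, 261 and 180 CPM. The CaV1.1 KO section at E14.5 differed, its 44 chosen spots having 7 UMIs of *Myh11* but 146 CPM of *Vwf* against 12.02 in its rest, and 1137 CPM of *Eln* against 274. Those spots were shallow, with a median of 3265 UMIs against 17267 in the rest, and *Myh11* was seen in 2 of them. In the CaV1.1 KO at E18.5 the 66 chosen spots had 101 CPM of *Myh11*, 7514 CPM of *Eln* and 124 CPM of *Gja5*, each between the 2 E18.5 controls, and 345 CPM of *Vwf*, above both. *Acta2* (539 CPM) stood below both controls, as it did in the rest of that section (109 CPM against 209 and 217), and its ratio of chosen to other spots, 4.94, was above those of the controls, 3.30 and 4.07. *Cnn1* stood at 9.36 CPM, from 10 UMIs, and 9 of the 66 spots lay in muscle.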

How the data were processed

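Libraries were Visium assays of formaldehyde-fixed, paraffin-embedded sections with a mouse probe set of 19465 genes. The authors deposited UMI counts per spot made with Space Ranger (2.0.1 in the headers of both E18.5 control files) on mm10. Deposited spatial autocorrelation tables were not used. Litter and sex are not given in the sources used here.

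Counts of spots with at least 1000 UMIs were summed per section, so that sections, not spots, were the replicates. Genes passing filterByExpr were fitted with edgeR 4.0.16 (TMM, quasi-likelihood, Benjamini-Hochberg) in R 4.3.3, with the section as block, since both sums come from 1 section. The sections share 2151 barcodes, which are grid positions and not cells. The deviations of the paired sums correlated with r = 0.635 across 12366 genes, which are not independent. Alternatives were DESeq2 1.42.0, other scalings, filters, shares of spots, scores and UMI minimums, leaving out sections, and 2 subsets of spots chosen after seeing the data. Skeletal muscle spots were set per section by Otsu's threshold on the mean log-normalized level of sarcomere genes. Named genes were those with the largest fold changes among those called, with log2 CPM averaging 5 or more and 1 sign in both sections after TMM scaling (15 higher and 10 lower against the rest, 8 and 5 outside and inside muscle, 8 and 8 against endothelium-rich spots), plus genes of fixed lists; 1 gene that the rule names is not reported here. The members, lists and tests were chosen with earlier results of these data known. Intervals are exact Clopper-Pearson at 95% and cover counting error only.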

Additional observations from a re-analysis of the deposited data

Results flagged for a closer look

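The smooth-muscle-rich contrast differed between tissue inside and outside skeletal muscle, by a test of that difference, for 39 of 12692 genes tested. It was more positive inside for 26 of the 39 (0.205% of the genes tested) and less positive inside for 13 (0.102%). Named below are 17 genes taken from these calls, in which the directions do not keep that proportion. Of these, 14 lost their call without control 1 and 14 without control 2, and all 17 lost it with no replicate block. With the median border 13 lost it and 4 reversed without passing the test. The log2 fold change was less positive inside for 10 of the 17. The difference in log2 fold change was -1.01 for *Myl9*, -1.12 for *Ppp1r14a*, -1.27 for *Heyl* and -1.16 for the potassium channel regulator *Abcc9*. The same direction was seen for *Pgm5* (-1.15), *Vegfd* (-2.05), *Parm1* (-1.81), *Calcrl* (-1.999), T-cadherin *Cdh13* (-1.02) and the extracellular superoxide dismutase *Sod3* (-1.001). The fold change was more positive inside for *Meox2* (1.36), the protease *Htra1* (1.22), *Dkk3* (1.35), *Adamtsl3* (1.11), *Ntn1* (1.54) and *Itgbl1* (1.82). For albumin (*Alb*) the difference was 5.85, and DESeq2 did not call it. DESeq2 called 9 of the 17 and gave no adjusted p for 7.

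In the β-cat cKO section at E18.5, which no comparison used, the same rule picked 107 spots, of which 7 were in muscle and 89 formed 1 patch. Smooth muscle genes stood far above the E18.5 controls there, at 901 CPM for *Myh11*, 616 for *Cnn1* and 3275 for *Actg2*. Keratins of stratified epithelium, near 0 in the smooth-muscle-rich spots of the controls, stood at 553 for *Krt5*, 6044 for *Krt15* and 7295 for *Krt4*. In the rest of that section *Krt5* stood at 53.3, *Krt15* at 695, *Krt4* at 929 and *Myh11* at 26.7 CPM, the last against 4.74 and 4.81 in the rest of the controls. In the chosen spots of that section *Vwf* stood at 59.3 and *Gja5* at 5.37 CPM. With 1 section the difference was not tested, and whether these spots hold diaphragm vessels or an attached organ was not tested.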

How the results depend on the processing

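*Myh11* and *Tagln* kept their calls under every alternative run, and *Acta2* under all but 2, with log2 fold changes of 1.34 without the replicate block and 1.14 to 1.36 when either control was left out. Calls against the rest numbered 3213, and 1439 with DESeq2 (1346 shared), 5102 with library totals alone, 53 with no replicate block, 659 in members with no adjacent member (a choice made after seeing the data) and 1325 to 3513 when leaving out either control. Outside muscle the 794 calls became 219 with DESeq2, 1296 with no filter on low counts, 35 with no replicate block, 2140 with the median muscle score as border and 514 to 530 when leaving out either control. Inside muscle the 2774 calls became 1001 with DESeq2, 167 with no replicate block, 5 with the median border and 1812 to 1818 when leaving out either control. The 39 calls of the difference between inside and outside became 147 with DESeq2, 86 with library totals, 176 with no filter, 0 with no replicate block (edgeR, 762 at an unadjusted p under 0.05), 16 with the top 10% of spots, 21 with the z-score, 72 in 1 fit of the control sections of both ages, 9 to 44 when leaving out either control and 0 with the median border (960 unadjusted). The third E14.5 control had too few spots for that fit and the one outside muscle. Against endothelium-rich spots the 555 calls became 23 with DESeq2 (22 shared), 1 with no replicate block, 364 with the top 10% of spots, 951 with the z-score, 342 with a UMI minimum of 5000, 86 in the fit of all controls and 8 to 24 when leaving out either control. The block follows from the section itself, and 50 of 72 named genes lost their call against the rest without it. In members with no adjacent member *Myl7* (-0.60) and *Myh6* (-1.18) reversed. With the median border the difference reversed for *Meox2* (-0.30), *Htra1* (-0.0445), *Dkk3* (-0.345) and *Ntn1* (-0.14). None of these reversed values passed the test (adjusted p from 0.35 to 0.98 by edgeR). Over all named genes and alternatives 1738 of 2066 results kept direction and call. The causes were not tested. Depth limits *Cnn1* and other genes at a few UMIs per spot.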
